A study of Zea mays with 48 samples.

Results

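The 150 genes described here were the maize transcripts whose share of the library varied least over 48 messenger RNA libraries of young embryos and endosperm. The level of a gene was taken as CPM, the raw count over the library total, times 1000000. Genes with a mean of at least 50 CPM over the 48 libraries, 4780 of 39656 gene models, were ranked by the standard deviation (SD) over the mean of their CPM, and the lowest 150 were kept. The members were therefore chosen on the same values that are given below, and their low spread is a description and not a test. A steady CPM is a steady share of the library total.

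The kernels came from reciprocal crosses between the inbred lines B73 and Mo17. In BM, B73 was the seed parent and Mo17 gave the pollen, and in MB the parents were exchanged. Laser capture microdissection (LCM) yielded embryos of 3 and 5 days after pollination (DAP), and manual dissection those of 5, 7, 9, 11 and 13 DAP. Endosperm, which feeds the embryo, was taken at 5 DAP, by a method that the labels leave out. These 8 sample kinds in both crosses made 16 groups of 3 biological replicates. The labels name no transgene or drug, every sample was hybrid, and each replicate was a pool of many kernels from several ears, so no value belongs to a single embryo.

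Genes of basic upkeep, such as those for protein synthesis, the cytoskeleton, energy supply and protein turnover, are read in nearly all cells. Some of them, above all actin, tubulin, elongation factor 1-alpha and glyceraldehyde-3-phosphate dehydrogenase genes, are widely used as internal references when transcripts are quantified. A reference is of use only where its level holds across the samples compared, and that level depends on what it is scaled to.

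Total counts per library ran from 7130090 to 21698127. The embryo regulator lec1 had a median of 476 CPM in LCM embryos at 3 DAP and 0.361 CPM in endosperm, and the endosperm polycomb gene fie1 had 356 CPM in endosperm and 2.63 to 50.5 CPM in the embryo kinds. Other endosperm markers were present in embryo libraries. The embryo-surrounding gene esr1 had a median of 3538 CPM in LCM embryos at 5 DAP against 21.7 CPM in endosperm, and the zein gz27 had 631 CPM in embryos at 11 DAP. Their part in the members' values was not tested. BM replicate 3 and MB replicate 1 of the LCM embryos at 3 DAP are called libraries that stood apart, a label given after the data were seen. In them 54 and 58 members lay more than 1.5-fold from their own mean CPM. The other replicates had 43 and 18 in BM and 8 and 20 in MB, so BM replicate 3 was close to BM replicate 1. Where a library that stood apart set an extreme of a gene described in detail, the value over the other 46 libraries is given too. In pooled tissue fewer cells of a type and less RNA per cell cannot be told apart.

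Over the 48 libraries the SD of the 150 genes was 12.5 to 21.3% of the mean, with a median of 19.4%, and the median of all 4780 genes was 45.9%. The highest library exceeded the lowest by 1.64 to 9.40 times, with a median of 2.63 times, where the median gene of the 4780 had a ratio of 8.40. A ratio under 2 was found for 8 genes of the 4780, and all 8 were members. The ratio was under 3 for 106 members. Mean levels of the members ran from 50.2 to 932 CPM with a median of 85.4 CPM, and 60 members had a mean of at least 100 CPM. Per length, their mean levels ran from 12.1 to 849 FPKM, which counts fragments per length of transcript and library size, with a median of 62.8 FPKM. Together the members held 1.57 to 2.26% of the counts of a library.

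**Figure D1:**
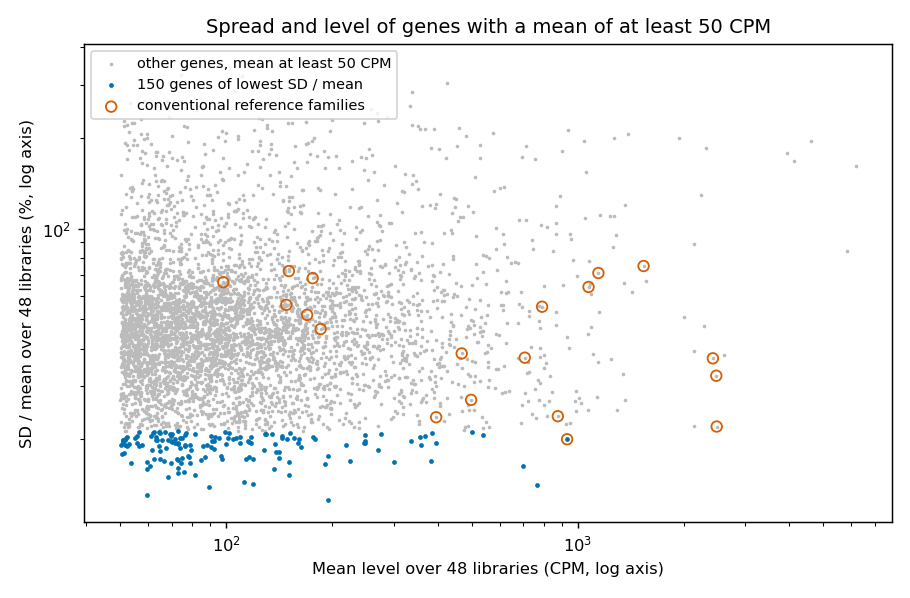
Mean level over 48 libraries (x, CPM, log axis) against SD over mean (y, %, log axis) for each of the 4780 genes with a mean of at least 50 CPM. Blue points are the 150 members, which by construction lie at or under 21.3%; orange rings are 19 genes of conventional reference families, of which 1 is a member.

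The member of lowest spread was GRMZM2G013890, for which the names table gave no descriptive symbol. Over the 48 libraries its lowest level was 151 CPM, its median 200 CPM and its highest 247 CPM, with a mean of 195 ± 24.4 CPM (SD, n = 48), or 12.5%. Its lowest library was an endosperm library, and its highest was BM replicate 3 of the LCM embryos at 3 DAP. By kind it had 190 ± 31.3 CPM (n = 6) in LCM embryos at 3 DAP, 216 ± 11.0 CPM in embryos at 9 DAP and 157 ± 6.92 CPM in endosperm. The endosperm libraries, at 151 to 166 CPM, lay below every library of manual embryos at 5 DAP, at 177 to 230 CPM, and did so by library totals. With TMM factors, explained further on, the log2 difference between these kinds was 0.08 ± 0.08 by edgeR (SE, 6 libraries each), and the gene was not called. Without the libraries that stood apart its highest level was 232 CPM and its SD 12.1% of the mean.

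The next members kept a similar range. GRMZM2G124975 ran from 44.5 to 83.4 CPM with a median of 57.3 CPM (59.6 ± 7.79, n = 48), and was lowest in endosperm and highest in LCM embryos at 3 DAP. GRMZM2G048703 ran from 59.2 to 117 CPM with a median of 89.6 CPM (89.1 ± 12.4), and its endosperm libraries fell within 92.3 to 97.1 CPM. GRMZM2G467059 ran from 74.8 to 172 CPM with a median of 118 CPM (119 ± 16.9), and both extremes were LCM libraries. Without the libraries that stood apart it ran from 90.2 to 172 CPM. The remaining unnamed genes among the lowest 10 were GRMZM2G107473 (112 ± 16.2 CPM), GRMZM2G115757 (68.1 ± 10.2 CPM), GRMZM2G162786 (81.7 ± 12.4 CPM), GRMZM2G058138 (151 ± 23.0 CPM) and GRMZM2G069410 (72.9 ± 11.2 CPM). Each had an SD of 14.5 to 15.4% of its mean.

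**Figure D2:**
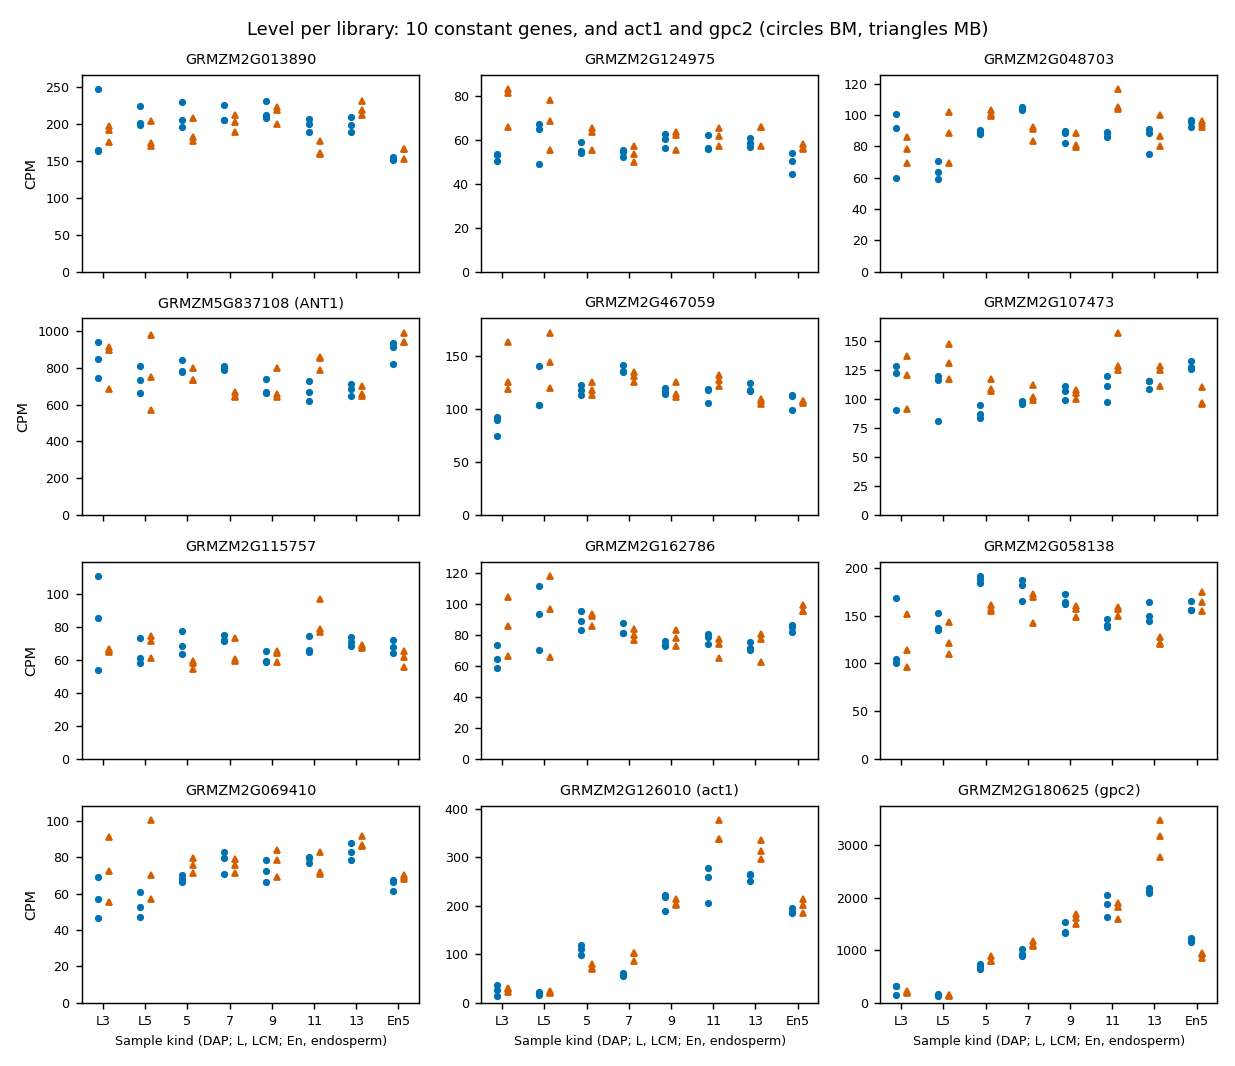
CPM in each library (y, linear, from 0) by sample kind (x; L, LCM; En, endosperm; numbers are DAP) for the 10 members of lowest spread and for 2 conventional reference genes, with circles for BM and triangles for MB. GRMZM2G013890, the member of lowest spread, stays between 151 and 247 CPM, and the other members shown vary more. The reference gene act1 (GRMZM2G126010) goes from 12.7 to 377 CPM and gpc2 (GRMZM2G180625) from 122 to 3476 CPM. Both were picked after their values were seen, from the most variable families of the reference list. Over the 19 genes of that list the SD was 19.99 to 75.2% of the mean.

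Among the members with a descriptive symbol the lowest spread belonged to ANT1 (GRMZM5G837108), a mitochondrial carrier that exchanges ADP for ATP across the inner membrane. It ran from 570 to 989 CPM over the 48 libraries with a median of 747 CPM (767 ± 108, 14.1%), and its rank was 4. Its mean was lowest in embryos at 13 DAP, 675 ± 27.1 CPM (SD, n = 6), and highest in endosperm, 923 ± 57.1 CPM. The libraries of embryos at 13 DAP, 647 to 710 CPM, did not overlap with endosperm, 818 to 989 CPM. Its relative ANT2 (GRMZM2G135186), with the same role, was also a member at rank 129. ANT2 ran from 264 to 689 CPM with a median of 568 CPM (536 ± 111, 20.7%), and was lowest in LCM embryos at 5 DAP at 335 ± 57.8 CPM. The log2 ratio of ANT1 to ANT2 was 0.54 ± 0.36 (SD, n = 48) in CPM and went from 0.03 to 1.37, so the pair did not keep a fixed proportion. Reads of such near relatives may be shared, which makes the value of either uncertain.

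The named members are ordered below by role, a grouping made by hand after their values were seen that says nothing about the families as wholes. In translation 3 named members had a role. The factor tif5A (GRMZM2G144030), the maize eIF5A gene, whose protein helps ribosomes through difficult peptide stretches, ran from 324 to 976 CPM with a median of 702 CPM (697 ± 114, 16.3%). Its lowest library was MB replicate 1 of the LCM embryos at 3 DAP, and the mean of that kind was 572 ± 150 CPM. Over the other 46 libraries its lowest level was 519 CPM and its SD 14.1% of the mean. In endosperm tif5A was at 624 to 649 CPM. The elongation factor 1-alpha gene elfa3 (GRMZM2G154218), whose family delivers aminoacyl-tRNA to the ribosome, ran from 651 to 1568 CPM with a median of 900 CPM (932 ± 186, 19.99%) and had the highest mean CPM of all members. It was highest in LCM embryos at 5 DAP at 1120 ± 257 CPM and lowest in embryos at 13 DAP at 766 ± 47.0 CPM. The ribosomal protein gene rpl5 (GRMZM5G831780) ran from 31.4 to 99.9 CPM (71.7 ± 13.9, 19.4%), and from 31.4 to 99.2 CPM over the other 46 libraries.

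Other named members act in RNA processing, transcription and chromatin. The histone deacetylase hda101 (GRMZM2G172883), also named rpd3, ran from 33.9 to 121 CPM with a median of 85.1 CPM (85.0 ± 14.5, 17.1%). Its lowest library was BM replicate 3 and its highest MB replicate 1 of the LCM embryos at 3 DAP, the same libraries that stood apart, and in the other kinds of manual embryo and endosperm its mean was 80.7 to 93.3 CPM. Without both of them it ran from 36.6 to 106 CPM (85.3 ± 11.6, 13.6%). The serine/arginine-rich splicing factors RS2Z39 (GRMZM2G474658, 55.6 ± 10.8 CPM), RSZ21 (GRMZM2G151923, 63.0 ± 12.8 CPM) and SCL30 (GRMZM2G065066, 72.9 ± 15.5 CPM) were all members. All 3 had their highest mean in embryos or endosperm at 5 DAP, RSZ21 at 82.2 CPM in manual embryos, where its lowest mean was 51.8 CPM at 9 DAP. GTF2H2 (GRMZM2G173309), a subunit of the transcription and repair factor TFIIH, was at 56.4 ± 11.9 CPM.

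Members with a role in protein folding and turnover were the disulfide isomerases PDIL5-4 (GRMZM2G067063, 163 ± 30.6 CPM) and PDIL1-3 (GRMZM2G134889, 101 ± 20.4 CPM), which form and rearrange disulfide bonds in the endoplasmic reticulum, and the ubiquitin-conjugating enzyme UCE (GRMZM2G007276, 144 ± 29.4 CPM). PDIL1-3 had one of the widest ranges of any member, from 21.3 CPM in MB replicate 1 of the LCM embryos at 3 DAP to 129 CPM in an embryo library at 13 DAP. Over the other 46 libraries its lowest level was 44.8 CPM. UCE was highest in manual embryos at 5 DAP at 175 CPM and lowest in endosperm at 103 CPM.

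Metabolic enzymes and regulators were also among the named members. The glutathione reductase gor1 (GRMZM2G172322), which keeps glutathione in its reduced form, was at 64.8 ± 11.2 CPM. The aminoaldehyde dehydrogenase AMADH1b (GRMZM2G016189) was at 75.6 ± 11.8 CPM and the nitrilase NIT1 (GRMZM2G178517) at 52.2 ± 10.6 CPM. The cyclin-dependent kinase cdc2 (GRMZM2G008327) was at 64.4 ± 13.6 CPM. Further members were cop2 (GRMZM2G028929, 190 ± 31.5 CPM), cef1 (GRMZM2G322186, 62.4 ± 10.7 CPM) and decoy (GRMZM2G133050, 79.1 ± 14.6 CPM). In all, 31 of the 150 members had a descriptive symbol, against 720 of the 4780 genes.

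At the edge of the set, GTF2H2 (21.1%), cdc2 (21.2%) and SCL30 (21.3%) lay just inside. GRMZM2G096261, GRMZM2G426591 and GRMZM2G162467, each at 21.3%, lay just outside.

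Most genes of the conventional reference families were not members, as was true of the 4780 genes as a whole. Of 26 gene models of these families in the table, 19 had a mean of at least 50 CPM. Of those 19, 1 was a member, elfa3, or 5.26% against 3.14% of all 4780 genes. The median spread of the 19 was 46.4% against 45.9% for all 4780 genes. The alpha-tubulin gene GRMZM2G153292, named both TUA1 and TUA2, came nearest among the others with 2484 ± 547 CPM (22.0%, rank 186). The tubulins tub6 (GRMZM2G071790, 23.7%), tub5/tub8 (GRMZM2G133802, 23.8%) and TUB1 (GRMZM2G164696, 27.0%) followed, and tua4 (GRMZM2G152466) was at 37.1%. The elongation factor gene EF1A (GRMZM2G153541) had 2478 ± 805 CPM (32.5%), from 322 CPM in MB replicate 1 of the LCM embryos at 3 DAP to 3551 CPM in an embryo library at 7 DAP. Over the other 46 libraries it started at 824 CPM and its SD was 28.6% of the mean. The other elongation factors elfa2 (GRMZM2G149768) and elfa7/elfa8 (GRMZM2G110509) were at 37.3% and 38.5%. These families hold near-identical copies, so single values are uncertain.

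The glyceraldehyde-3-phosphate dehydrogenase and actin genes varied most within that list. The dehydrogenase gene gpc2 (GRMZM2G180625) had a mean of 139 CPM in LCM embryos at 5 DAP and 2638 CPM in embryos at 13 DAP, a ratio of 19.0, and gpc3 (GRMZM2G071630), gpc4 (GRMZM2G176307) and GAPC1 (GRMZM2G046804) had an SD of 64.1%, 75.2% and 55.1% of the mean. The 3 actin genes ranged from 46.4% for Maz83 (GRMZM2G126190) to 72.3% for act1 (GRMZM2G126010). Of the 19 genes, 16 had their lowest mean in an LCM kind and 10 their highest in endosperm. Of the 4780 genes 36.8% had their lowest mean in LCM embryos at 3 DAP and 20.9% in those at 5 DAP. For 15.5% of the 4780 the highest mean was in endosperm.

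Other families gave 0 or 1 member each. Ribosomal protein genes gave 1 member of 31 with a mean of at least 50 CPM, translation factors 1 of 14, mitochondrial respiration genes 1 of 6, chromatin genes 1 of 51, cell cycle genes 1 of 25 and transcription factors 0 of 36. Chaperones gave 0 of 7, vesicle traffic genes 0 of 6, kinases and phosphatases 0 of 6, genes of ubiquitin ligation and conjugation 0 of 5, RNA splicing and processing genes 0 of 5 and proteasome genes 0 of 2. The lists went by symbol and leave out some members named above, among them ANT1, ANT2, RS2Z39, RSZ21, SCL30, both PDIL genes and UCE. The 1 member of the mitochondrial list, with an SD of 20.1% of its mean, is thus neither ANT1 nor ANT2. The translation factors leave out elfa3, which is counted with the conventional reference families. The background was 150 of 4780, or 3.14%, and with lists of this size single members say nothing about a family. Of these lists the median spread was lowest in the translation factors at 30.1% and was 46.0% in the ribosomal protein genes.

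The laser-captured embryos set most of the extremes of the members. For 127 of the 150 genes the lowest of the 48 libraries was an LCM library, and for 73 the highest was, although only 12 libraries were LCM. Without both libraries that stood apart these counts were 107 and 65. The same counts were not made for all 4780 genes, so they cannot be read as a trait of the members. MB replicate 1 of the LCM embryos at 3 DAP was the lowest library for 43 members and BM replicate 3 for 31. For 5 members neither extreme was an LCM library. Within the 36 other libraries the members' SD was 7.88 to 21.1% of the mean, with a median of 13.6% against 27.6% for the 4780 genes. Within the 12 LCM libraries it had a median of 24.95% against 36.4%.

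In manual embryos and endosperm the median member stayed at 0.941 to 1.11 times its own mean in each library, and 0 to 5 of the 150 members per library lay more than 1.5-fold from their mean. In LCM libraries the median member was at 0.771 to 1.09 times its mean, and 8 to 58 members per library lay outside that range. The median of all 4780 genes moved further, to 0.455 to 0.743 times its mean in LCM libraries. It was 0.802 to 0.865 in endosperm, where the members' median was 0.965 to 1.00.

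**Figure D3:**
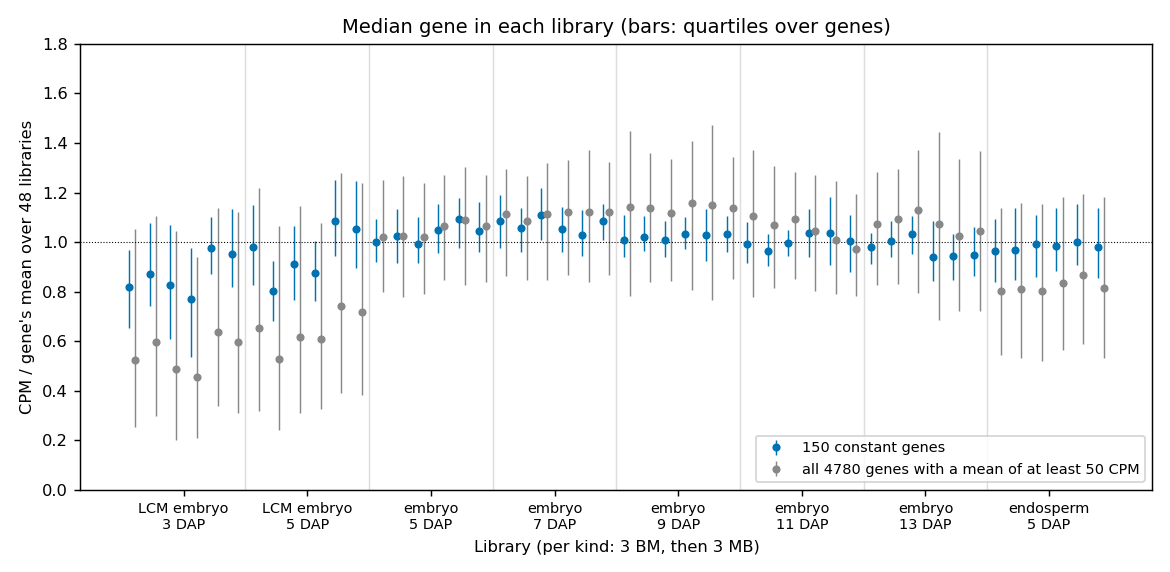
CPM relative to each gene's mean over 48 libraries (y) for each library in its sample kind (x, 3 BM then 3 MB libraries per kind). Points are medians and bars quartiles over genes, in blue for the 150 members and in grey for all 4780 genes; in the LCM libraries the members' medians are 0.771 to 1.09 and the grey medians 0.455 to 0.743.

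The spread of a member had parts between kinds, between crosses and between replicates. The ratio of the highest to the lowest kind mean was 1.22 to 1.91, with a median of 1.55, where the median of the 4780 genes was 4.18. LCM embryos at 3 DAP had the lowest mean of the 8 kinds for 54 members, LCM embryos at 5 DAP for 30 and endosperm for 26. These were 36%, 20% and 17.3% of the members, close to the 36.8%, 20.9% and 17.3% of the 4780 genes. The highest mean was spread more evenly, with 28 members highest in endosperm, 27 in manual embryos at 5 DAP and 26 at 7 DAP. That was 18.7%, 18% and 17.3% of the members, against 15.5%, 11.3% and 10.6% of the 4780 genes. Replicates of a group differed by an SD of 6.57% of the mean for the median member and 8.21% for the median of the 4780 genes, and for the members counting alone would give 3.07%. Of the squared deviations of the median member, 52.8% lay between kinds, 16.8% between the crosses within a kind and 27.5% between replicates, where the corresponding medians of the 4780 genes were 86.6%, 5.73% and 6.35%.

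The rule was also applied to part of the libraries and its choice measured in the rest. Genes were chosen anew by the rule on the libraries of 2 replicate numbers and measured in the 16 libraries of the remaining number. With replicates 1, 2 and 3 held out, 116, 128 and 120 of the 150 chosen genes were members. The median spread of the 150 chosen genes was 21.5%, 18.7% and 20.3% with replicates 1, 2 and 3 held out, a mean of 20.2 ± 1.43% (SD, n = 3), against 47.6%, 46.0% and 46.7% for all genes that passed the level rule. All 150 chosen genes lay under the median of all genes in each of the 3 cases, and 118, 139 and 125 of them lay in the lowest 10%. The held-out libraries were replicates of the same groups, with the same kinds, crosses, collection methods and scaling. A low spread there was therefore likely beforehand. The values describe repeatability of the rule between replicates, and are no test of the members and no measure of transfer to other tissues.

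Which genes were steady depended on the scale. With library sizes adjusted by the trimmed mean of M-values (TMM), which sets the bulk of genes level between libraries, the factors were 0.595 to 0.823 for LCM libraries, 0.921 to 0.975 for endosperm and 1.11 to 1.27 for manual embryos. On that scale the SD of the members had a median of 28.2% of the mean, and 59 of the 150 were above 30%. The lowest 150 genes by TMM shared 14 with the members, and those by the size factors of DESeq2 (RLE) shared 21. By FPKM, which is also scaled to the library, 103 were shared. Without the 12 LCM libraries 31 were shared, and without both LCM libraries that stood apart 123.

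**Figure D4:**
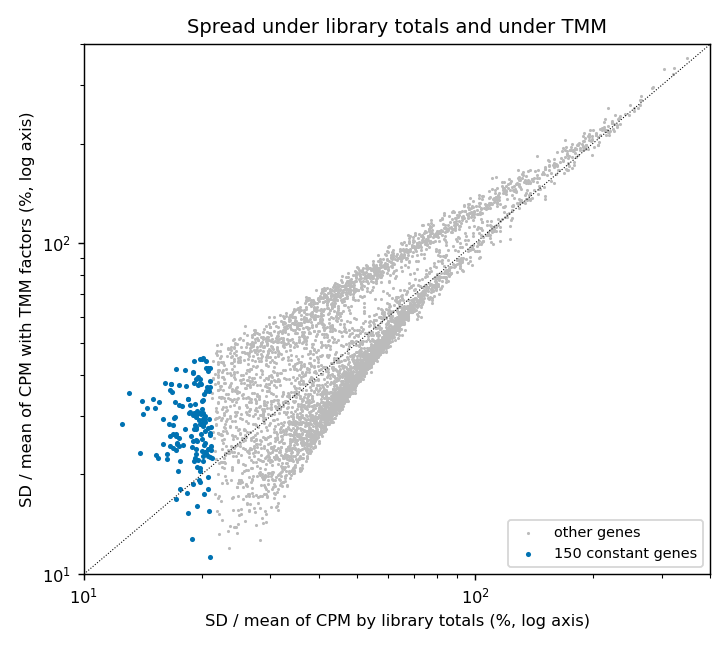
SD over mean of CPM by library totals (x, %, log axis) against the same with TMM factors (y, %, log axis) for the 4780 genes, with the 150 members in blue and equality as a dotted line. Most members lie above the line, with a median of 28.2% by TMM against 19.4% by library totals, and 14 of them are among the lowest 150 by TMM.

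A few members were among the lowest 150 on both scales. GRMZM2G119248 was the single member that stayed in the lowest 150 under each of 9 other scalings, measures and library subsets, namely TMM, RLE, FPKM, the SD of log2 CPM, group means, pairwise ratios, and the sets without LCM, without endosperm and without both LCM libraries that stood apart. It ran from 32.7 to 93.1 CPM with a median of 74.0 CPM (72.5 ± 12.5, 17.2%), and its spread by TMM was 16.9%. Its kind means went from 51.1 CPM in LCM embryos at 3 DAP to 87.5 CPM in embryos at 9 DAP. In the TMM contrasts given below it was called at 13 against 5 DAP (log2 0.20 ± 0.06, SE). It was also called in LCM against manual embryos (0.59 ± 0.11) and in endosperm against embryos (0.25 ± 0.05). GRMZM2G082664 had the lowest spread of all genes by TMM at 11.3%, and 21.1% by library totals, with 70.7 ± 13.5 CPM in LCM embryos at 3 DAP and 124 ± 7.47 CPM in embryos at 9 DAP. GRMZM2G096070 was at 12.8% by TMM and 18.9% by library totals. Named members in both sets included ANT2 (GRMZM2G135186, 19.7% by TMM) and Rcd1L4 (GRMZM2G045331, 16.1%). By contrast elfa3 (GRMZM2G154218) was at 44.8% by TMM and ANT1 (GRMZM5G837108) at 33.4%, while the non-member EF1A (GRMZM2G153541) went from 32.5% by library totals to 22.4% by TMM.

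Per-length values parted from counts for some members. The SD of FPKM was within 5 percentage points of that of CPM for 128 members and above 30% of the mean for 16, and 15 of those 16 had a higher mean FPKM in LCM than in other libraries. For ANT1 (GRMZM5G837108) the mean FPKM was 1772 ± 269 in the 12 LCM libraries and 541 ± 97.4 in the other 36, a ratio of 3.28, where the ratio of its mean CPM was 1.05. For GRMZM2G107757 these ratios were 3.66 and 0.767, and for GRMZM2G174757 they were 3.45 and 0.781. These 3 genes had the largest FPKM ratios of the 16. In each of them every LCM library lay above every other library in FPKM, which held for 6 of the 16. AC234201.1_FG003 went the opposite way, with 6.66 ± 2.05 FPKM in LCM libraries and 24.8 ± 4.29 in the others, at 59.3 and 59.7 CPM. Counts of this kind were not made for genes outside the set, so they cannot be read as a trait of the members. What sets both units apart in LCM libraries was not tested.

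The contrasts that follow give log2 fold changes ± standard error (SE) from edgeR with TMM factors. Levels in CPM beside them, and any overlap of libraries, are by library totals, so both can differ in size. A gene was called where its p, adjusted by Benjamini and Hochberg over the whole table of tested genes, was under 0.05. The libraries compared were among those that chose the members, so the counts of called members are descriptions, set beside the share of all genes called.

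Between manual embryos at 5 and 13 DAP, 6 libraries each, 77 of the 150 members were called, 48 higher and 29 lower at 13 DAP, with 63.3% of all tested genes called (30.3% higher, 33% lower). The changes were small. The median absolute log2 fold change of the members was 0.17, against 0.53 over all tested genes, and none reached 1. GRMZM2G027875 had 271 to 298 CPM with a median of 282 CPM at 5 DAP and 356 to 507 CPM with a median of 441 CPM at 13 DAP. The libraries did not overlap, and its change was 0.75 ± 0.09. GRMZM2G117642 changed by 0.64 ± 0.07, and the largest fall was that of the splicing factor RSZ21 (GRMZM2G151923) at -0.52 ± 0.08, named after its value was seen. With library totals in place of TMM factors 83 members were called, 28 higher and 55 lower, with 62.9% of all genes called (24.0% higher, 39.0% lower). In 1 fit over all libraries 46 members were called, with 49.4% of all genes.

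Between LCM embryos at 3 and 5 DAP 6 members were called, 1 higher and 5 lower at 5 DAP, with 9.88% of all genes called (2.85% higher, 7.04% lower). The largest change was in GRMZM2G145715, which shares the symbol pdh1 with the member GRMZM2G361693. It had 131 to 177 CPM with a median of 146 CPM at 3 DAP and 66.6 to 145 CPM with a median of 86.2 CPM at 5 DAP. The ages overlapped in CPM, and the log2 change was -0.88 ± 0.20. GRMZM2G092129 changed by -0.80 ± 0.23, and without both libraries that stood apart its change was -0.56 and no longer called. The count of 6 was 7 without both of those libraries, with 14.7% of all genes called. Without MB replicate 3 at 3 DAP it was 3, with 8.68% of all genes. It was 1 or 2 when BM replicate 1, 2 or 3 or MB replicate 2 or 3 at 5 DAP was left out. The share of all genes called was then 5.29 to 7.04%. With library totals 1 member was called, with 9.34% of all genes. It was 11 with DESeq2, with 17.1% of all genes called, 2 without a filter on low counts, with 5.85%, and 54 in 1 fit over all libraries, with 39.7%.

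Between collection methods at 5 DAP the call depended on the scale. With TMM factors 129 of the 150 members were called higher in LCM than in manual embryos and none lower, with 76.4% of all genes called (35.4% higher, 41% lower). Their median log2 fold change was 0.64. With library totals 53 were called, 11 higher and 42 lower, with 78.1% of all genes called (20.8% higher, 57.2% lower). The median of the members was then -0.12, while the median over all tested genes went from -0.15 to -0.90. GRMZM2G105531 had 115 to 196 CPM with a median of 160 CPM in LCM and 97.3 to 112 CPM with a median of 109 CPM in manual embryos. The libraries did not overlap. Its change was 1.31 ± 0.13 with TMM factors, and the log2 ratio of its mean CPM by library totals was 0.56. GRMZM5G899300 likewise had 172 to 213 CPM in LCM and 105 to 138 CPM in manual embryos. Its change was 1.30 ± 0.09 with TMM factors and its log2 ratio by library totals 0.54.

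**Figure D5:**
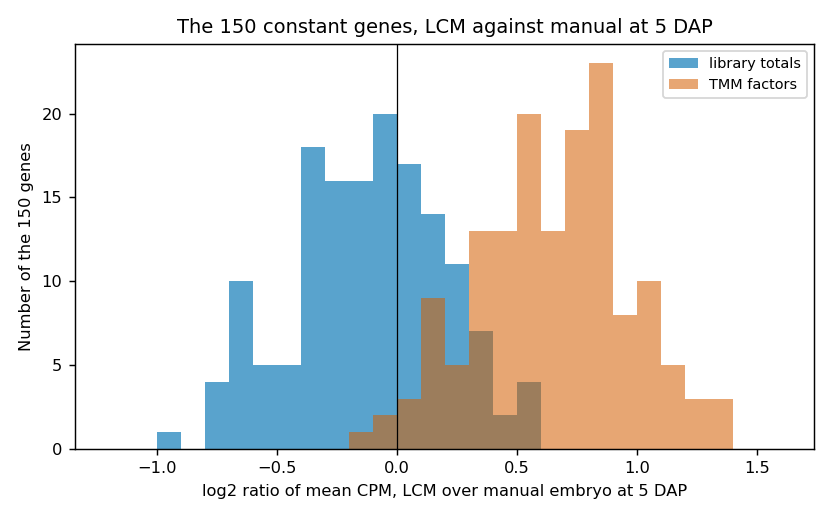
Number of members (y) by log2 ratio of mean CPM in LCM over manual embryos at 5 DAP (x, 6 libraries each), in blue by library totals and in orange with TMM factors. By library totals 55 members are above 0 and 95 below, and with TMM factors 147 are above and 3 below.

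Between endosperm and manual embryos at 5 DAP 116 members were called, 112 higher and 4 lower in endosperm, with 79.9% of all genes called (37.7% higher, 42.2% lower). Their median absolute log2 fold change was 0.34 against 0.98 over all tested genes. GRMZM2G435338 had 258 to 292 CPM with a median of 267 CPM in endosperm and 154 to 176 CPM with a median of 163 CPM in embryos, without overlap. These levels are by library totals, and its change with TMM factors was 1.13 ± 0.06. GRMZM2G097226 changed by 1.10 ± 0.08. The 4 lower members, named after their values were seen, were UCE (GRMZM2G007276, -0.34 ± 0.10), GRMZM2G012416 (-0.31 ± 0.06), GRMZM2G111247 (-0.26 ± 0.07) and GRMZM2G153250 (-0.21 ± 0.08). With library totals 104 members were called, 41 higher and 63 lower in endosperm, with 81.8% of all genes called (27.1% higher, 54.7% lower).

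Between the crosses, over all 8 kinds, 4 members were called, 3 higher and 1 lower in MB, with 6.24% of all genes called (2.31% higher, 3.94% lower). At an unadjusted p under 0.05 there were 19, or 12.7%, against 21.2% of all tested genes. The called members were GRMZM2G009876 (-0.23 ± 0.05), GRMZM2G061900 (0.23 ± 0.07), GRMZM2G090241 (0.19 ± 0.06) and GRMZM2G027875 (0.18 ± 0.06), the last pair named after their values were seen. The median absolute log2 difference of the members was 0.07, against 0.16 over all tested genes. The count was 1, 0 and 1 without replicates 1, 2 and 3, with 3.58%, 0.754% and 1.58% of all genes called. It was 8 with DESeq2, with 9.93% of all genes, and 2 without a filter, with 4.45%.

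Whether the cross difference varied with sample kind was tested as an interaction, and 49 members were called, with 27.5% of all genes called. The count fell to 21, 13 and 22 without replicates 1, 2 and 3, with 15.5%, 7.65% and 14.1% of all genes called. It was 74 with DESeq2, with 41.4% of all genes. ANT1 (GRMZM5G837108) was at 800 ± 10.4 CPM (SD, n = 3) in BM and 651 ± 13.7 CPM in MB at 7 DAP, and at 671 ± 54.9 CPM in BM and 833 ± 41.2 CPM in MB at 11 DAP. The crosses did not overlap at either age, and their order was opposite. The histone deacetylase hda101 (GRMZM2G172883) was at 72.3 ± 15.7 CPM in BM and 97.2 ± 9.44 CPM in MB in LCM embryos at 5 DAP, without overlap, and at 86.4 ± 4.20 and 78.6 ± 1.39 CPM at 13 DAP, also without overlap and in the opposite order.

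Over the 5 contrasts without interaction, 1 member was called in none, 30 in 1, 60 in 2, 54 in 3 and 5 in 4. Of the 18834 genes tested in all 5, 2.21% were called in none, 14.4% in 1, 37.2% in 2, 38.5% in 3, 7.06% in 4 and 0.658% in all 5. The member called in none with TMM factors was GRMZM2G107757, with 61.1 ± 6.84 to 105 ± 7.14 CPM over the kinds, and its FPKM had an SD of 74.3% of the mean. With library totals it was called between LCM and manual embryos (-0.78 ± 0.11) and between endosperm and embryos (-0.56 ± 0.07). With TMM factors a log2 change of 1 or more in either direction was seen for 16 members between collection methods, for 5 between endosperm and embryo and for none in the other contrasts. Of all tested genes 58% and 49.2% changed that far in the first pair of contrasts, and 29.9%, 23.6% and 3.77% between 13 and 5 DAP, between LCM ages and between the crosses.

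Ratios between members within a library need no scaling. Among the 45 pairs of the 10 members of lowest spread, GRMZM2G124975 and GRMZM2G467059 had the smallest SD of their log2 ratio, 0.22 (n = 48). The SD of the log2 ratio to all other genes averaged 1.00 for the median member and 1.17 for the median of the 4780 genes. By that measure 18 of the members were among the lowest 150.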

How the data were processed

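Per the file headers, the authors' deposited table gives the raw count and the FPKM of each gene model in each of 48 libraries. Counts are whole numbers; FPKM is scaled by the authors to length and library. TopHat, HTSeq, FastQC and Cufflinks 2.2.1 are listed per the submitters' processing notes. Which tool made which value, build, annotation and strandedness were not given in the sources used here. Antisense reads therefore cannot be told apart. Sequences of the genes are not analysed here.

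CPM was the count over the sum of counts over 39656 gene models. The members and lists were chosen with earlier results of these data known. Differences were tested, two-sided, with edgeR 4.0.16 under R 4.3.3 (TMM after filterByExpr by group, estimateDisp, robust glmQLFit, glmQLFTest) on 12 libraries with cross as an additive term, or on all 48 with kind as a term. The pipeline was tested on simulated data. Alternatives were RLE factors, DESeq2 1.42.0, other filters and subsets. Library totals in edgeR, the pairwise ratio and the sets without both LCM libraries were chosen after seeing the data.

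Named genes were the 10 members of lowest spread, the 8 lowest with a descriptive symbol, the 3 on each side of the threshold, the 2 called members of largest change per contrast, and up to 12 conventional reference genes; other named members with roles, and act1, gpc2 and further reference genes, were chosen after their values were seen. Symbols came from a names table of the assembly Zm-B73-REFERENCE-NAM-5.0, which matched 135 of the 150 members. The elfa spelling was added to the reference list after names were seen.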

Additional observations from a re-analysis of the deposited data

Results flagged for a closer look

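The difference between MB and BM varied with sample kind, by the edgeR interaction test over all 48 libraries, for 8 of the 31 members named by rule, or 25.8%. The adjusted p was 0.0208 for ANT1 (GRMZM5G837108), 0.0118 for GRMZM2G467059, 0.0396 for GRMZM2G107473, 0.0341 for hda101 (GRMZM2G172883), 0.00745 for elfa3 (GRMZM2G154218), 0.0463 for GRMZM2G027875, 0.0463 for GRMZM2G145715 and 0.0317 for GRMZM2G105531. Among all tested genes 27.5% were called in this test. Leaving out replicates 1, 2 and 3 in turn left 0, 1 and 1 of the 8 under 0.05. With library totals 4 of the 8 were under 0.05, and without a filter on low counts 4. With RLE factors 6 were, with a replicate block 6 and with DESeq2 8.

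The kinds that parted the crosses differed between these genes. Levels are CPM by library totals, in kinds picked after their values were seen. In LCM embryos at 5 DAP elfa3 (GRMZM2G154218) was at 1305 ± 237 CPM (SD, n = 3) in BM and 936 ± 84.3 CPM in MB, and in endosperm at 776 ± 32.3 CPM in BM and 962 ± 46.2 CPM in MB. GRMZM2G145715 was at 73.1 ± 6.48 CPM in BM and 119 ± 26.0 CPM in MB in LCM embryos at 5 DAP, and at 184 ± 4.49 and 184 ± 13.2 CPM in manual embryos of that age. GRMZM2G107473 was higher in MB in manual embryos at 5 DAP, 111 ± 5.38 against 88.9 ± 5.72 CPM, and higher in BM in endosperm, 129 ± 3.61 against 101 ± 8.08 CPM. In LCM embryos at 3 DAP GRMZM2G467059 was at 85.8 ± 9.53 CPM in BM and 136 ± 23.7 CPM in MB, and GRMZM2G027875 at 238 ± 65.1 and 388 ± 41.2 CPM. Without BM replicate 3 and MB replicate 1 of that kind, which stood apart, the remaining pairs of libraries were at 90.2 and 92.3 CPM in BM and 119.6 and 125 CPM in MB for GRMZM2G467059, and at 218 and 310.2 CPM in BM and 362 and 367 CPM in MB for GRMZM2G027875. GRMZM2G105531 was higher in BM at 13 DAP, 147 ± 8.11 against 113 ± 10.2 CPM, and higher in MB at 11 DAP, 167 ± 12.6 against 141 ± 3.11 CPM.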

How the results depend on the processing

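Of the 150 members, 14 were kept with TMM, 21 with RLE, 18 by pairwise ratios, 97 and 60 with a mean of at least 20 and 100 CPM, 31 without LCM libraries, 84 without endosperm, and 116 to 150 when a library or replicate number was left out. The held-out median was 18.7% with TMM. Counts of members called follow, with the share of all tested genes called in brackets. At 13 against 5 DAP the count was 46 (49.4%) in 1 fit over all libraries. It was 7 (46.6%) with a log2 change of 0.5 or more either way, and 73 to 78 (60.1 to 64%) with a library left out. For LCM embryos at 5 against 3 DAP it was 11 (17.1%) with DESeq2, 2 (5.85%) without a filter and 1 (9.34%) with library totals. There it was 54 (39.7%) in 1 fit over all libraries and 1 to 5 (5.29 to 11%) with a library left out. For LCM against manual embryos it was 53 (78.1%) with library totals and 126 to 131 (73.5 to 75.7%) with a library left out. For endosperm it was 53 (68.4%) with a change of at least 0.5 and 105 to 117 (77.5 to 80%) with a library left out. For MB against BM it was 2 (6.55%) with RLE, 8 (9.93%) with DESeq2 and 2 (4.45%) without a filter. It was 0 (3.75%) with a change of at least 0.5 and 0 to 1 (0.754 to 3.58%) with a replicate number left out. For the interaction it was 74 (41.4%) with DESeq2 and 13 to 22 (7.65 to 15.5%) with a replicate number left out. With library totals the log2 change of LCM against manual embryos turned to -0.033 in GRMZM2G013890, -0.35 in GRMZM2G048703, -0.051 in GRMZM5G837108, -0.37 in GRMZM2G058138 and -0.17 in GRMZM2G069410, among the named values tested. Over the set, members above 0 went from 147 to 55 in ratios of mean CPM. The cause was not tested. The deviations of same-numbered libraries correlated at r of -0.53 to 0.56 over 360 pairs. The median was -0.003, and 71 pairs were over 0.1. The numbers were not used to pair samples, and a batch shared by same-numbered libraries was not tested. With a replicate block the counts were 74 (60.9%), 2 (7.96%), 129 (75.2%), 114 (78.8%), 3 (5.75%) and 42 (25.8%). These are for 13 against 5 DAP, LCM ages, collection, endosperm, crosses and interaction, in that order.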

Other observations

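By TMM the genes of lowest spread were mostly other ones. After the member GRMZM2G082664 (97.3 ± 11.0 TMM-scaled CPM, SD, n = 48, 11.3%) came GRMZM2G140885 (57.8 ± 6.93, 11.97%), GRMZM2G132796 (172 ± 21.9, 12.7%), the member GRMZM2G096070 (63.7 ± 8.15, 12.8%) and GRMZM2G055807 (90.6 ± 11.97, 13.2%). Among these 5 genes 2 were members by library totals. These values chose the genes and are a description.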
